A study of Mus musculus with 6 samples.

Results

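The goblet cell genes *Muc2*, *Tff3*, *Clca1*, *Fcgbp*, *Zg16*, *Spink4*, *Agr2*, *Spdef*, *Atoh1* and *Retnlb* were read by name from a table of 54167 genes in 6 colorectal tumors of C57BL/6J mice. Each of the 10 names matched 1 gene ID, and all 10 passed the filter that left 15117 genes for testing, at least 1 TPM in at least 3 tumors. TPM are expression values divided by transcript length and scaled to a fixed total in each tumor, so that levels can be compared between genes. Of the tumors, 3 came from Trp53fl/fl mice, whose floxed *Trp53* stays intact without Cre, and 3 from VP mice, which carry the same floxed alleles and the *Pvillin-Cre* transgene (labelled Pvillin+Trp53fl/fl). The villin promoter is active in intestinal epithelial cells, goblet cells included, so *Trp53* is left intact in the other cells of a VP tumor. All mice were males that received 10 mg/kg of the carcinogen azoxymethane (AOM) at 8 weeks of age. Courses of 2.5% dextran sulfate sodium (DSS), which injures the colonic mucosa, followed for 7 days each, and the tumors were taken on day 98. RNA came from homogenized tumor tissue, and in such bulk RNA fewer cells of a type and less RNA per cell cannot be told apart.

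Goblet cells are the mucus-secreting cells of the intestinal epithelium. They arise from progenitors in which Notch signaling is low and the transcription factor Atoh1 is switched on, and Spdef acts after Atoh1 to promote their maturation. Their granules hold the gel-forming mucin Muc2, which is folded with the help of Agr2 in the endoplasmic reticulum and released together with Fcgbp, Clca1, Zg16 and trefoil factor 3 to build the mucus layer that keeps bacteria off the colonic surface.

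Sequence around the transcription start was at hand for 5 of the 10 genes, *Muc2*, *Fcgbp*, *Agr2*, *Spdef* and *Atoh1*. It was taken from RefSeq (GRCm38.p6) as windows of 300 bases, of which 250 lie before RefSeq's start and 50 after it. GENCODE M21 places the start of *Agr2* earlier, at 35992907, inside the 250 bases printed for it. The E-box CAGCTG, a motif of the class that Atoh1 binds, occurred in 2 of these 5 windows and in 16.3% of 32851 windows of the same length. The windows of *Muc2* and *Fcgbp* are those 2, and that of *Agr2* is printed with them because *Agr2* was highest and lowest in the same tumors as *Muc2*. The 250 bases before each start are given 5′ to 3′, with CAGCTG in capitals. The windows lie on the plus strand at chr7:141690090-141690339, chr7:28070986-28071235 and chr12:35992675-35992924.
Muc2: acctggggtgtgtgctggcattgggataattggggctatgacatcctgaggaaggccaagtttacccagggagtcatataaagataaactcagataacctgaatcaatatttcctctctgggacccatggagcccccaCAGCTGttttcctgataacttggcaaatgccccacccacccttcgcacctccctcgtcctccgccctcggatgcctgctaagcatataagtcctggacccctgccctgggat
Fcgbp: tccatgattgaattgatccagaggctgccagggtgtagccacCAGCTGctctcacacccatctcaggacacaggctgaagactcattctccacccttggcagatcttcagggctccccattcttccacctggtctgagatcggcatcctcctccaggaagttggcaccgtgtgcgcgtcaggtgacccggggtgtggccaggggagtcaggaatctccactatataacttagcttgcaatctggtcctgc
Agr2: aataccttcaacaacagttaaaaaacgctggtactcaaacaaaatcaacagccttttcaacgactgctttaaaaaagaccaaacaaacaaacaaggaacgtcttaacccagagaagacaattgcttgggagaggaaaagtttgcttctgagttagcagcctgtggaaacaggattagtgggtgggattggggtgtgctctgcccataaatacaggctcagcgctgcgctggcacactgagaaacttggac
The capitals start 112 bases before the start of *Muc2* and 208 bases before that of *Fcgbp*. Neither CAGATG, another E-box, nor CCGGAT (the Spdef core), TGTTTAC (forkhead) or TTTATTG (Cdx) occurred on either strand in any of the 5 windows. These motifs were present in 17.2%, 6.0%, 3.6% and 4.6% of all windows. The consensus of a single p53 decamer was likewise not found in the 5 windows, against 8.4% of all windows. CAGCTG reads the same on both strands. A match describes letters in the window and is no evidence that a factor binds there.

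The targeted gene *Trp53* was at 124.94, 99.30 and 147.45 TPM in Trp53fl/fl tumors and at 38.45, 32.79 and 27.83 TPM in VP tumors, with a limma adjusted p of 0.0207. Between 14857 and 15234 genes reached 1 TPM in each tumor. Sequencing depth is unknown, since TPM keep no number of reads. The 12 pan-epithelial markers were abundant in every tumor. Their geometric mean per tumor ran from 468 to 486 TPM in Trp53fl/fl tumors and from 527 to 567 TPM in VP tumors, without overlap. Taken singly, 3 of the 12 markers were without overlap, against 19.3% of all genes tested.

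The 10 genes were expressed in all 6 tumors, and none passed the adjusted threshold of 0.05 (limma, Benjamini-Hochberg), against 0.165% of all genes tested. *Clca1* stood apart with a lower level in every VP tumor. It was the single member of the 10 with an unadjusted p under 0.05, a threshold met by 12.5% of all genes tested, and the single member whose genotypes did not overlap, against 19.3% of all genes tested. Of the 10 log2 fold changes, 4 were above 0 and 6 below, against 60.8% of all genes tested below 0. Their median was -0.09 and that of all genes tested was -0.07. Log2 fold changes here and below are differences of mean log2(TPM + 1), VP minus Trp53fl/fl, a scale that understates changes of weakly expressed genes.

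**Figure D1:**
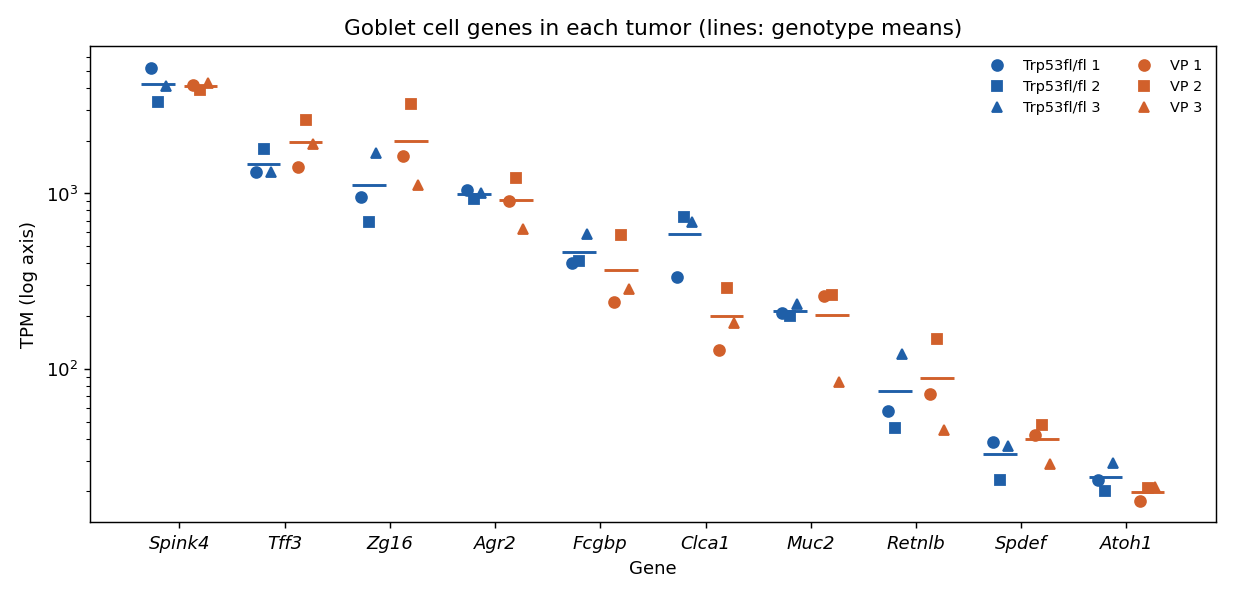
TPM (log axis) of the 10 goblet cell genes in each tumor, ordered by mean level, with a symbol per tumor and lines at the genotype means. The *Clca1* values of the 3 VP tumors lie below all 3 Trp53fl/fl values, and those of the other 9 genes overlap between genotypes.

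By mean TPM over the 6 tumors, *Spink4* was the most abundant of the 10 at 4158 TPM, followed by *Tff3* at 1728 TPM and *Zg16* at 1557 TPM. *Spink4* ranked 16 among all genes of the table. *Agr2* came next at 957 TPM. *Fcgbp*, *Clca1* and *Muc2* followed at 417, 393 and 209 TPM, *Retnlb* at 81.8 TPM, and the transcription factors *Spdef* and *Atoh1* were lowest at 36.2 and 22.1 TPM. *Spink4* lay above *Tff3*, and *Agr2* above *Fcgbp*, in their whole ranges over the 6 tumors, while the ranges of the other neighbours overlapped. Within each of the 6 tumors *Muc2* was nevertheless above *Retnlb*, *Retnlb* above *Spdef* and *Spdef* above *Atoh1*. The order changed between tumors for *Tff3* and *Zg16*, *Zg16* and *Agr2*, *Fcgbp* and *Clca1*, and *Clca1* and *Muc2*, which held it in 3, 4, 4 and 5 of the 6 tumors.

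*Atoh1* (chromosome 6 from 64729125 to 64731245), the factor that commits progenitors to secretory fates, was at 23.38, 20.24 and 28.98 TPM in Trp53fl/fl tumors and at 17.75, 20.98 and 21.11 TPM in VP tumors. The VP values lay toward the low end, with overlap at 20.24 TPM. The means were 24.2 ± 4.43 and 19.9 ± 1.90 TPM (SD, n = 3 each). The log2 fold change was -0.26 (95% interval -0.63 to 0.12, limma adjusted p = 0.521).

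*Spdef* (chromosome 17 from 27714352 to 27728955), the factor of goblet cell maturation, was at 38.41, 23.37 and 36.24 TPM in Trp53fl/fl tumors and at 42.17, 48.05 and 28.73 TPM in VP tumors. Trp53fl/fl replicate 2 was lowest, and VP replicates 1 and 2 were above all the Trp53fl/fl tumors. A log2 fold change of 0.27 (95% interval -0.31 to 0.86) resulted, with a limma adjusted p of 0.656. The genotypes thus overlapped for both regulators.

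*Muc2* (chromosome 7 from 141690340 to 141754693), the gel-forming mucin of the colon, was at 208.82, 199.09 and 235.39 TPM in Trp53fl/fl tumors. In VP tumors it was at 258.75, 265.26 and 84.12 TPM. VP replicates 1 and 2 were thus above every Trp53fl/fl tumor and VP replicate 3 was far below all of them. The means were 214 ± 18.8 and 203 ± 103 TPM (SD, n = 3 each), a coefficient of variation of 8.76% against 50.7%. The log2 fold change was -0.25 (95% interval -1.24 to 0.74, limma adjusted p = 0.815), and without VP replicate 3 it was 0.29 (limma adjusted p = 0.407).

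*Agr2* (chromosome 12 from 35992907 to 36004087), the protein disulfide isomerase that Muc2 needs for its folding, was at 1046.73, 930.16 and 1010.41 TPM in Trp53fl/fl tumors and at 905.08, 1223.36 and 626.93 TPM in VP tumors. As for *Muc2*, the highest value was that of VP replicate 2 and the lowest that of VP replicate 3. Its log2 fold change was -0.17 (95% interval -0.72 to 0.38, limma adjusted p = 0.778), and without VP replicate 3 it was 0.08. The ratio of *Agr2* to *Muc2* TPM was 5.01, 4.67 and 4.29 in Trp53fl/fl tumors and 3.50, 4.61 and 7.45 in VP tumors.

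*Clca1* (chromosome 3 from 145003817 to 145032776) encodes a secreted metalloprotease that acts on the Muc2 network. It was at 336.12, 729.83 and 690.60 TPM in Trp53fl/fl tumors and at 128.09, 288.64 and 183.16 TPM in VP tumors. All VP values lay below the lowest Trp53fl/fl value, that of replicate 1. The mean was 586 ± 217 TPM against 200.0 ± 81.6 TPM (SD, n = 3 each), or 0.342 times the Trp53fl/fl level. The log2 fold change was -1.54 (standard error 0.38, 95% interval -2.44 to -0.65). The unadjusted p of 0.00459 became 0.269 after limma's adjustment over all genes tested. Leaving out single tumors kept it between -1.90 and -1.26, and over all 14 alternatives the adjusted p ran from 0.0883 to 0.455.

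Other members of the calcium-activated chloride channel regulator family, chosen after their values were seen, overlapped between genotypes. *Clca3b* was at 325 ± 27.4 and 391 ± 96.5 TPM, *Clca4b* at 310 ± 174 and 254 ± 91.5 TPM, and *Clca4a* at 56.1 ± 23.8 and 43.9 ± 21.9 TPM (SD, n = 3 each, Trp53fl/fl first). Their log2 fold changes were 0.24, -0.18 and -0.37, with limma adjusted p-values of 0.610, 0.881 and 0.728. The sign for *Clca4b* changed without Trp53fl/fl replicate 2 (0.23) and without VP replicate 3 (0.073). How reads shared between these related genes were divided is not given in the sources used here.

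*Fcgbp* (chromosome 7 from 28071236 to 28120862) encodes a large mucus protein that is covalently bound in the Muc2 gel. It was at 400.97, 409.81 and 587.01 TPM in Trp53fl/fl tumors and at 239.36, 581.62 and 284.15 TPM in VP tumors. VP replicates 1 and 3 were below all Trp53fl/fl tumors, while VP replicate 2 nearly equalled the highest. For *Fcgbp* the log2 fold change was -0.43 (95% interval -1.21 to 0.36, limma adjusted p = 0.607).

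*Zg16* (chromosome 7 from 127050156 to 127087328), a lectin that aggregates Gram-positive bacteria in mucus, was at 959.93, 688.68 and 1701.67 TPM in Trp53fl/fl tumors. It was at 1626.09, 3242.89 and 1121.75 TPM in VP tumors. VP replicate 2 was the highest of the 6, and the other VP values fell within the Trp53fl/fl range. The log2 fold change of 0.80 was the largest positive one among the 10 (95% interval -0.27 to 1.86) and did not pass the test (limma adjusted p = 0.492). The ratio of *Zg16* to *Clca1* TPM, chosen after the values were seen and not tested, was 2.86, 0.944 and 2.46 in Trp53fl/fl tumors and 12.7, 11.2 and 6.12 in VP tumors.

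**Figure D2:**
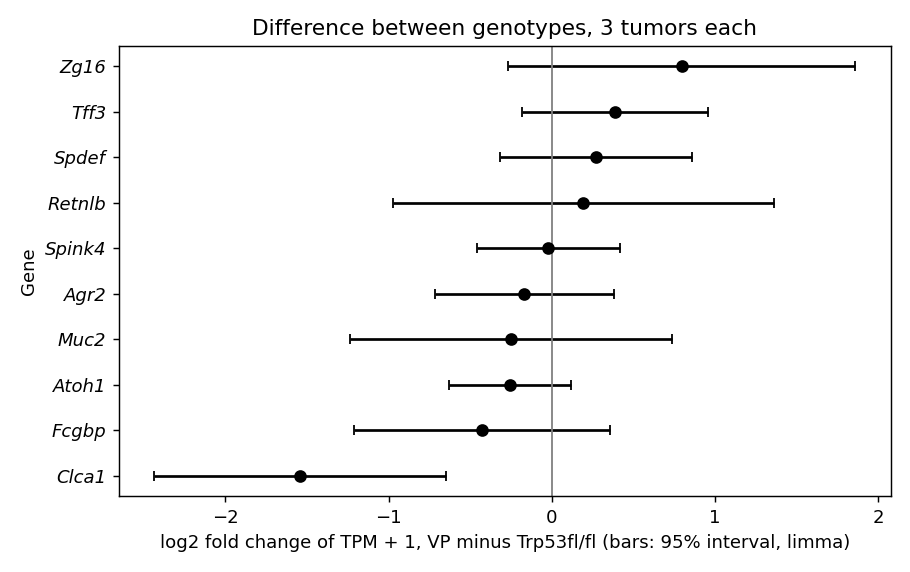
Log2 fold change of TPM + 1, VP minus Trp53fl/fl, for the 10 goblet cell genes, with 95% intervals from limma that are not adjusted for the number of genes. The interval of *Clca1*, from -2.44 to -0.65, lies below 0, and the other 9 include 0.

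*Tff3* (chromosome 17 from 31125306 to 31129646), the trefoil peptide of goblet cells that aids mucosal repair, was at 1321.93, 1785.21 and 1332.90 TPM in Trp53fl/fl tumors. In VP tumors it was at 1407.97, 2605.93 and 1916.12 TPM. VP replicates 2 and 3 were above all Trp53fl/fl tumors and VP replicate 1 was within their range. This gave a log2 fold change of 0.39 (95% interval -0.18 to 0.96, limma adjusted p = 0.525).

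*Spink4* (chromosome 4 from 40920052 to 40931395), a secreted Kazal-type peptide, was at 5218.84, 3340.51 and 4098.10 TPM in Trp53fl/fl tumors and at 4133.86, 3872.57 and 4285.09 TPM in VP tumors. All VP values lay inside the Trp53fl/fl range and within 1.11-fold of each other. The genotypes differed by a log2 fold change of -0.02 (95% interval -0.46 to 0.42, limma adjusted p = 0.973).

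*Retnlb* (chromosome 16 from 48816856 to 48818892) encodes the bactericidal protein RELMβ, which goblet cells make in response to bacteria and type 2 cytokines. It was at 57.18, 45.99 and 121.71 TPM in Trp53fl/fl tumors and at 72.13, 148.85 and 44.87 TPM in VP tumors. The spread within either genotype, 2.65-fold and 3.32-fold from lowest to highest, was wider than the difference between the means, 75.0 ± 40.9 and 88.6 ± 53.9 TPM (SD, n = 3 each). Its log2 fold change was 0.19 (95% interval -0.97 to 1.36, limma adjusted p = 0.884).

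The 10 genes did not vary as a unit. VP replicate 2 held the highest value of 6 of them (*Muc2*, *Tff3*, *Zg16*, *Agr2*, *Spdef* and *Retnlb*), Trp53fl/fl replicate 3 that of *Fcgbp* and *Atoh1*, Trp53fl/fl replicate 2 that of *Clca1* and Trp53fl/fl replicate 1 that of *Spink4*. The lowest values were spread over VP replicates 1 and 3 and Trp53fl/fl replicate 2, with 3 genes each, and Trp53fl/fl replicate 1, with 1 gene. Within the VP genotype, replicate 2 exceeded replicate 3 by 3.32-fold for *Retnlb*, 3.15-fold for *Muc2*, 2.89-fold for *Zg16*, 2.05-fold for *Fcgbp* and 1.95-fold for *Agr2*. The same ratio was 0.994 for *Atoh1* and 0.904 for *Spink4*. The coefficient of variation was larger among VP than among Trp53fl/fl tumors for 8 of the 10 genes, against 48.1% of the genes tested with values above 0 in both genotypes. Some of the 8 differed little, with 25.0% against 24.9% for *Spdef* and 40.8% against 37.0% for *Clca1* (VP first). *Spink4* and *Atoh1* went the other way. Each coefficient rests on 3 tumors that all 10 genes share, so the genes are not separate observations.

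**Figure D3:**
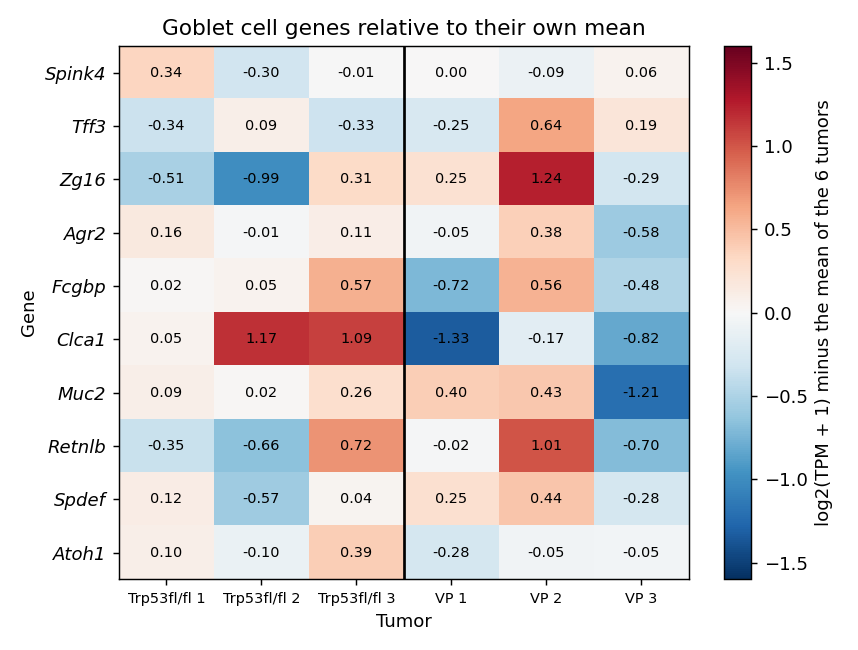
Log2(TPM + 1) of each gene minus its mean over the 6 tumors, with red above and blue below the mean, for 3 Trp53fl/fl tumors (left of the line) and 3 VP tumors. *Clca1* is below its mean in all 3 VP tumors, and *Muc2*, *Agr2* and *Retnlb* have their highest value in VP replicate 2 and their lowest in VP replicate 3.

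The mean log2(TPM + 1) over the 10 genes was 8.32, 8.22 and 8.67 in Trp53fl/fl tumors and 8.18, 8.79 and 7.94 in VP tumors. VP tumors held both the highest and the lowest value, and the genotype means of 8.40 ± 0.235 and 8.30 ± 0.441 (SD, n = 3 each) differed by -0.10, which is smaller than either SD. Together the 10 genes made up 0.961%, 0.817% and 0.984% of all TPM in Trp53fl/fl tumors and 0.883%, 1.23% and 0.860% in VP tumors. *Spink4* was the largest single contributor in every tumor.

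Profiles were compared by the root mean square difference over the 6 tumors between a gene's log2(TPM + 1), centred on its own mean, and the mean centred profile of the 10 genes. *Agr2* was the member nearest to that profile, at 0.153, and *Clca1* the farthest, at 0.833. The genes outside the 10 that came nearest were *Cd180* (0.0379), *Smtn* (0.0419), *Arl16* (0.0448), *Cep131* (0.0469), *Amotl2* (0.0707), *Flna* (0.0774), *Ptgs1* (0.0856) and *Zc3h4* (0.0882). In all, 78 of 15107 such genes, or 0.516%, were nearer to it than *Agr2* was. *Agr2* is itself part of the averaged profile and the outside genes are not. The distance also depends on how widely a gene varies, so the share does not measure how closely genes vary together.

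By mean log2(TPM + 1), smooth muscle markers shared the highest and the lowest tumor with the goblet cell genes, but VP replicate 1 differed. It was above all Trp53fl/fl tumors for smooth muscle markers and below all of them for the goblet cell genes. The mean log2(TPM + 1) of *Acta2*, *Myh11*, *Des*, *Tagln* and *Cnn1* was 6.46, 5.85 and 6.68 in Trp53fl/fl tumors and 6.85, 7.40 and 5.44 in VP tumors, so that VP replicate 2 was again highest and VP replicate 3 lowest. Their summed level ran from 389 to 635 TPM in Trp53fl/fl tumors and from 336 to 1003 TPM in VP tumors. Of the 10 colonocyte markers, which absorptive cells express, the mean was 5.64, 5.51 and 5.87 in Trp53fl/fl tumors and 5.84, 6.12 and 5.37 in VP tumors, with the same highest and lowest tumor. Summed levels ordered the tumors otherwise. The colonocyte sum was highest in Trp53fl/fl replicate 2, at 2092 TPM against 1864 TPM in VP replicate 2. The goblet cell sum was lowest in Trp53fl/fl replicate 2, at 8173 TPM against 8596 TPM in VP replicate 3. The 9 enteroendocrine markers, of a secretory lineage that also depends on Atoh1, were highest in VP replicate 2 at 3.98 and lowest in Trp53fl/fl replicate 2 at 2.68. Of the 8 tested, 7 were higher and 1 lower in VP tumors, with a median log2 fold change of 0.30. *Pyy* was at 111.03, 67.36 and 272.37 TPM in Trp53fl/fl tumors and at 390.91, 473.39 and 273.76 TPM in VP tumors (limma adjusted p = 0.317). It was the single one of the 8 without overlap, against 19.3% of all genes tested. The part of tissue composition in the spread of the goblet cell genes was not tested.

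**Figure D4:**
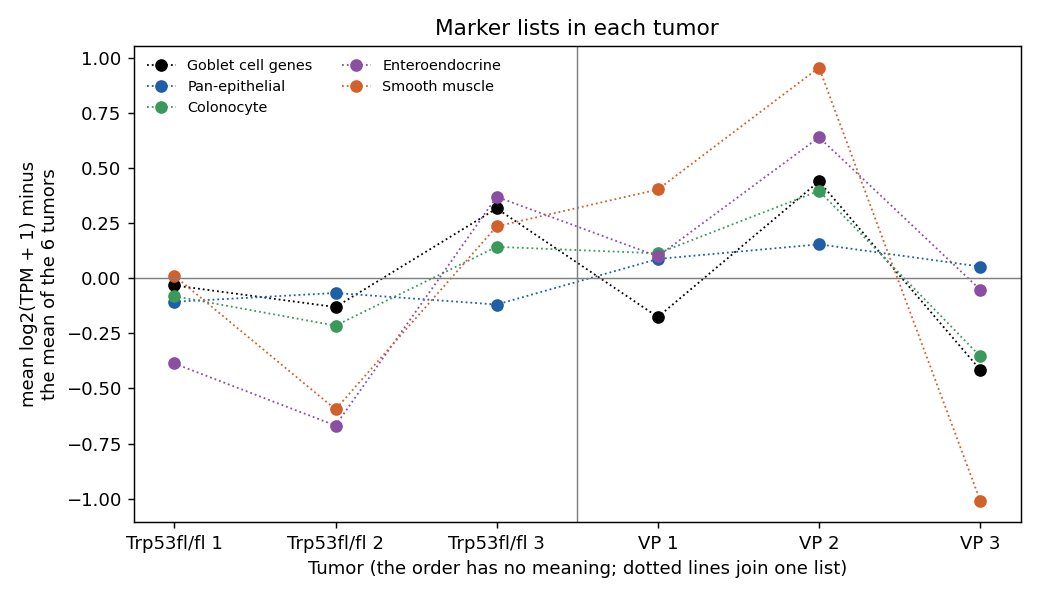
Mean log2(TPM + 1) of each marker list in each tumor, minus the mean of the 6 tumors. The goblet cell, colonocyte and smooth muscle lists are highest in VP replicate 2 and lowest in VP replicate 3, while the pan-epithelial list is higher in all 3 VP tumors than in the Trp53fl/fl tumors.

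The genes around the 10 were read from 6 lists, and no gene of these lists passed the adjusted threshold, against 0.165% of all genes tested. Among 15 tested transcription factors and fate regulators 7 were higher and 8 lower in VP tumors, with a median log2 fold change of -0.01. *Foxa1*, a forkhead factor of secretory lineages, had the lowest unadjusted p. It was at 61.46, 56.42 and 57.82 TPM in Trp53fl/fl tumors and at 48.57, 42.68 and 43.38 TPM in VP tumors, without overlap (log2 fold change -0.38, limma unadjusted p = 0.00780, adjusted p = 0.291). *Foxa1* was the single one of the 15 without overlap, against 19.3% of all genes tested. *Klf4*, which goblet cells need to mature, and *Creb3l1*, a membrane-bound factor of secretory cells, had log2 fold changes of 0.39 and 0.56 with overlapping values (limma adjusted p = 0.451 and 0.465).

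Among the 7 tested mucins, *Muc2* was the single one with a negative log2 fold change, which turned positive without VP replicate 3, and the median of the 7 was 0.39. The membrane-bound mucin *Muc13* was at 977.85, 1010.00 and 804.47 TPM in Trp53fl/fl tumors and at 1408.44, 1242.81 and 1088.13 TPM in VP tumors. These values did not overlap, but the log2 fold change of 0.42 failed the adjustment (limma unadjusted p = 0.0243, adjusted p = 0.341). *Muc13* was the single one of the 7 without overlap, against 19.3% of all genes tested. *Muc1* was at 27.3 ± 12.3 and 49.8 ± 9.83 TPM and *Muc3* at 137 ± 44.4 and 309 ± 169 TPM (SD, n = 3 each, Trp53fl/fl first), with limma adjusted p-values of 0.358 and 0.445. As for *Muc2*, VP replicate 3 had the lowest *Muc3* value of the VP tumors, 115.11 TPM against 425.74 and 387.24 TPM. The gastric and airway gel-forming mucins *Muc5ac* and *Muc5b* were at or below 0.20 TPM in every tumor.

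In the list of mucin glycosylation and sulfation, 32 gene IDs were tested, of which *St6galnac2* holds a pair, and 16 were higher and 16 lower in VP tumors with a median log2 fold change of 0.01. The sialyltransferase *St6galnac6* was at 275.10, 331.80 and 334.90 TPM in Trp53fl/fl tumors and at 460.65, 489.04 and 374.67 TPM in VP tumors. *Galnt6*, which starts O-glycan chains, was at 32.6 ± 0.626 and 40.3 ± 0.476 TPM, and *B3gnt3*, which extends them, at 116 ± 3.87 and 146 ± 17.0 TPM (SD, n = 3 each). These 3 were without overlap and higher in VP tumors, with log2 fold changes of 0.49, 0.30 and 0.32, and limma adjusted p-values of 0.311, 0.317 and 0.341. In the other direction *St6galnac2* (43.36, 50.23 and 44.24 TPM against 42.56, 33.06 and 37.68 TPM for the more abundant of its IDs) and *B3gnt6* (1.94, 1.13 and 1.75 TPM against 1.02, 1.11 and 0.91 TPM) were without overlap and lower, both picked after their values were seen. Over all genes tested, 19.3% were without overlap. At an unadjusted p under 0.05, 4 genes of the list were higher and 0 lower, against 4.51% and 8% of all genes tested.

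The list of secreted goblet cell products is broader than its name, since *Pigr* encodes a receptor and *Guca2a* is also on the colonocyte list. Of its 20 tested genes, 8 had a higher and 12 a lower mean log2 level in VP tumors, with a median log2 fold change of -0.18. At an unadjusted p under 0.05, 3 were higher (*Pla2g10*, *Pigr* and *Lypd8*) and 3 lower (*Clca1*, *Ang4* and *Itln1*), against 4.51% and 8% of all genes tested. *Ang4*, an antimicrobial ribonuclease of goblet and Paneth cells, was at 865.93, 1243.77 and 515.71 TPM in Trp53fl/fl tumors and at 54.90, 99.40 and 424.88 TPM in VP tumors. All VP values lay below the Trp53fl/fl values, VP replicate 3 closest to them, and the log2 fold change was -2.62 (limma unadjusted p = 0.00764, adjusted p = 0.289). It was -3.46 without VP replicate 3 (limma adjusted p = 0.0561) and -1.99 without VP replicate 1 (limma adjusted p = 0.450). *Itln1*, a lectin of both cell types chosen after its values were seen, was at 684.11, 450.70 and 453.39 TPM against 78.43, 75.83 and 450.07 TPM. VP replicate 3 was thus at the Trp53fl/fl level, and the limma adjusted p was 0.341. With single tumors left out it ran from 0.0219 without that tumor to 0.686 without Trp53fl/fl replicate 1. *Clca1* did not share this exception, since VP replicate 3 was at 183.16 TPM.

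*Ang4* and *Itln1* are also on the list of 6 Paneth cell markers, none of which passed the adjusted threshold. The summed level of the 6 was 13390, 8943 and 4622 TPM in Trp53fl/fl tumors and 3141, 2343 and 6168 TPM in VP tumors, with overlap, and 5 of 6, *Ang4* and *Itln1* included, had a negative log2 fold change. *Defa24* was at 5445.53, 3144.42 and 899.13 TPM against 885.17, 439.72 and 1820.54 TPM, and *Lyz1* at 3146.43, 2405.90 and 1500.02 TPM against 795.09, 303.81 and 1713.26 TPM, both with overlap. *Mmp7* was at 1393.66, 943.44 and 857.73 TPM against 1034.19, 1289.32 and 1064.41 TPM. *Clca1*, like 5 of the 6 Paneth markers, had a negative log2 fold change. Among Trp53fl/fl tumors it was lowest in replicate 1, where the Paneth sum was highest. The part of Paneth-type cells in these values was not tested.

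The 3 genes of this list that were higher at an unadjusted p under 0.05 had the following values. *Pigr*, the receptor that carries IgA across the epithelium, was at 568.57, 677.77 and 585.53 TPM in Trp53fl/fl tumors and at 1230.98, 998.49 and 745.34 TPM in VP tumors. *Pla2g10*, a secreted phospholipase, was at 48.5 ± 4.37 and 68.6 ± 8.70 TPM, and *Lypd8*, which holds flagellated bacteria off the epithelium and was chosen after its values were seen, at 5864 ± 1530 and 8825 ± 570 TPM (SD, n = 3 each). In the whole list 3 genes were without overlap and higher, namely these 3, and 3 were without overlap and lower. Over all genes tested, 19.3% were without overlap. A low unadjusted p had already picked these 3 genes. Their log2 fold changes were 0.67, 0.49 and 0.62, with limma adjusted p-values of 0.302, 0.280 and 0.334. Of the 12 pan-epithelial markers 11 had a log2 fold change above 0, against 60.8% of all genes tested below 0. Their median was 0.17 and their range -0.01 to 0.47. *Epcam*, *Krt18* and *Cdh1*, picked after their values were seen, were near 0 at 0.003, 0.004 and 0.02. When each tumor was divided by the geometric mean of those 12 markers, the log2 fold changes of *Pigr*, *Pla2g10* and *Lypd8* became 0.48, 0.30 and 0.42. That of *Clca1* became -1.74 and that of *Atoh1* -0.44 (limma adjusted p = 0.109 for *Clca1* and 0.157 for *Atoh1*), while the median of all genes tested moved from -0.07 to -0.25.

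Of 30 tested genes of protein folding and granule release, 17 were higher and 13 lower, with a median log2 fold change of 0.06. *Best2*, a bicarbonate channel of goblet cells in the colon, was at 10.17, 11.89 and 14.42 TPM in Trp53fl/fl tumors and at 41.50, 20.75 and 14.41 TPM in VP tumors, which overlapped (log2 fold change 0.89, limma adjusted p = 0.378). The vesicle protein *Vamp8* was at 158 ± 12.6 and 187 ± 15.6 TPM, and the stress sensor *Ern1* at 17.3 ± 0.769 and 14.6 ± 0.843 TPM (SD, n = 3 each). Neither passed the test (limma adjusted p = 0.431 and 0.445), though the genotypes did not overlap. Of the 30 tested genes, 1 was without overlap and higher and 1 without overlap and lower, against 19.3% of all genes tested without overlap.

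Among the cytokine inputs, type 2 cytokines and IL-22, which induce goblet cell growth and mucus genes, *Il13*, *Il5*, *Il9*, *Il25* and *Il22* stayed below the filter. Of the 10 genes tested 6 were higher and 4 lower, with a median log2 fold change of 0.05. The receptor genes *Il22ra1* and *Il4ra* did not overlap between genotypes. They were the 2 of the 10 tested genes without overlap, close to the 19.3% of all genes tested. *Il22ra1* was at 16.35, 20.29 and 14.67 TPM in Trp53fl/fl tumors and at 26.66, 26.37 and 21.32 TPM in VP tumors (log2 fold change 0.52, limma adjusted p = 0.317). *Il4ra* was at 41.56, 38.14 and 33.73 TPM against 43.89, 47.87 and 51.15 TPM (log2 fold change 0.33, limma adjusted p = 0.358).

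**Figure D5:**
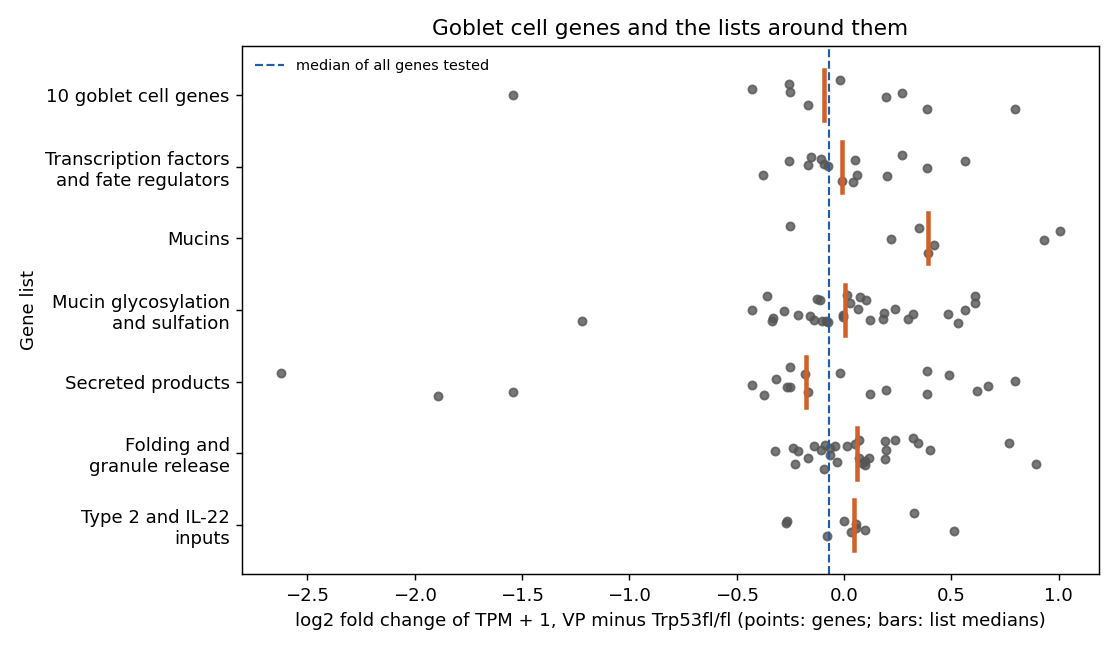
Log2 fold change of TPM + 1, VP minus Trp53fl/fl, of each tested gene of the 10 goblet cell genes and 6 lists around them, with orange bars at the list medians and a dashed line at the median of all genes tested, -0.07. Lists overlap widely, and the lowest points are *Ang4* at -2.62, *Itln1* at -1.89 and *Clca1* at -1.54.

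Among markers of other cells, 6 of 6 neutrophil genes had a log2 fold change above 0, with a summed level of 255 to 597 TPM in Trp53fl/fl tumors and 1078 to 1814 TPM in VP tumors. Among them is a relative of *Retnlb* in the resistin-like family, *Retnlg*, which was chosen after its values were seen. It was at 41.81, 18.85 and 40.05 TPM in Trp53fl/fl tumors and at 232.50, 181.56 and 147.50 TPM in VP tumors, and every VP value was above every Trp53fl/fl value (33.6 ± 12.8 and 187 ± 42.8 TPM, SD, n = 3 each; limma adjusted p = 0.0521). *Retnlg* passed the adjusted threshold in 3 of the 14 alternatives. *Ngp*, a granule protein of neutrophil precursors also chosen after its values were seen, was the 1 neutrophil marker that passed as reported. It was at 0.81, 0.21 and 0.62 TPM in Trp53fl/fl tumors and at 48.44, 18.17 and 32.08 TPM in VP tumors (limma adjusted p = 0.00804). *Ngp* reached 1 TPM only in the VP tumors, so it entered the test through the genotype where it was high. Its adjusted p therefore cannot be read as support for a difference. That p was 0.0513 without Trp53fl/fl replicate 3 and 0.0795 without the filter on low values. The *Retnlb* values overlapped, and the difference between *Retnlb* and *Retnlg* was not tested. Summed levels of the remaining lists overlapped between genotypes, at 78.3 to 102 and 94.4 to 134 TPM for tuft cells, 356 to 431 and 322 to 471 TPM for stem cells, 815 to 906 and 680 to 1015 TPM for fibroblasts, 3978 to 5837 and 3480 to 7704 TPM for plasma cells, and 71.0 to 100.3 and 22.7 to 106 TPM for squamous cells. A sum follows its most abundant genes, and single genes of these lists were without overlap. They were 2 higher and 1 lower of 6 tested tuft genes, and 2 lower of 5 stem genes. Of 6 fibroblast genes 2 were lower, of 3 squamous genes 1 was lower, and of 6 plasma cell genes there were 0. Over all genes tested, 19.3% were without overlap, and no gene of these lists passed the adjusted threshold. Among tuft cell markers *Trpm5* and *Pou2f3* were below the filter, as were *Krt5* and *Trp63* among squamous markers, *Neurod1* among enteroendocrine markers and *Olfm4* among stem cell markers.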

How the data were processed

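RNA was sequenced from 3 Trp53fl/fl and 3 VP tumors, grouped by their titles. The authors selected poly(A) RNA, sequenced paired-end TruSeq libraries and deposited TPM with 2 decimals, 1 column per tumor. The submitters' processing notes list HISAT2, StringTie and mm9. The annotation is not given in the sources used here. The table holds no coordinates, so gene coordinates are those of GENCODE M21 (GRCm38), which has 96.2% of the gene IDs. TPM keep no depth, so no count test or counting error could be given.

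From the deposited TPM, log2(TPM + 1) was tested with limma 3.58.1 in R 4.3.3 (empirical Bayes with trend, two-sided, Benjamini-Hochberg adjustment over all 15117 genes that reached 1 TPM in 3 or more tumors). The labels name no separate mice, so p-values may measure technical spread only. In data simulated for this comparison with 15117 genes, 56% of 100 genes changed 2-fold and 90% of 100 changed 4-fold were recovered, with 7 false calls among 153. The changed genes were drawn from those with a mean log2(TPM + 1) above 2, and the noise was normal and independent between genes. These shares need not hold for single members, some of which spread widely between tumors. Members and lists were chosen with earlier results of these data known. Named genes are the members, *Trp53*, the tested genes of each wider list with the lowest p (at most 4) the 8 genes nearest in profile and, in each marker list, up to 3 genes of highest mean TPM, and the text marks any other gene as picked after seeing its values. Lists were described without set tests. Alternatives were a pseudocount of 0.1, no filter, a stricter filter (mean of 5 TPM or more), median-of-ratios, quantile and epithelial scaling, a replicate block, no trend, and each tumor left out. Protein sequences were not used here.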

Additional observations from a re-analysis of the deposited data

How the results depend on the processing

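None of the 10 goblet cell genes passed the adjusted threshold in limma under any of the 14 alternatives, and 1 had an unadjusted p under 0.05 in the reported setting. Of 140 log2 fold changes of the 10 genes under the alternatives, 7 had the opposite sign. That of *Spink4* was 0.050 with median-of-ratios rescaling and lay between -0.18 and 0.15 when single tumors were left out. With a tumor left out, that of *Muc2* ran from -0.53 to 0.29, that of *Agr2* from -0.40 to 0.081 and that of *Retnlb* from -0.26 to 0.60, and the positive values for *Muc2* and *Agr2* came without VP replicate 3. Among the 31 other genes run under the alternatives, *Clca4b* alone changed sign, with values between -0.65 and 0.23 when single tumors were left out. The difference of the mean log2 level of the 10 genes ran from -0.35 without VP replicate 2, which is beyond the pooled SD of 0.215 of those 5 tumors, to 0.08 without VP replicate 3. The cause of each change was not tested. Over all genes tested, 25 passed the threshold (12 higher and 13 lower in VP tumors), 7 without the filter, 53 with epithelial scaling (16 higher and 37 lower) and between 6 and 28 when single tumors were left out. The split was 13 higher and 9 lower with median-of-ratios rescaling. *Trp53* passed in 8 of 14 alternatives. With the replicate block 10 genes passed (7 higher and 3 lower) and none of the 10 goblet cell genes. Deviations of same-numbered tumors had correlations of 0.019, -0.052 and 0.018 across genes, and those of other pairs ran from -0.108 to 0.095. These values cannot decide whether the numbers pair the tumors, because deviations from a genotype mean balance out within each genotype.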
